A study of Mus musculus with 4 samples.

Results

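The genes described here encode Wnt ligands, their Frizzled receptors, and the Dickkopf (Dkk) and secreted frizzled-related (Sfrp) proteins that act on Wnt signalling outside the cell. They were chosen with earlier results of these data known, by a rule on names. It took every gene whose platform symbol is Wnt, Fzd, Dkk or Sfrp followed by a digit, from probe sets with 1 symbol. This gave 38 of the 18193 named genes, read by 75 probe sets. There were 19 Wnt genes, 11 Fzd genes, 4 Dkk genes and 4 Sfrp genes, and the Fzd count includes Fzd10os, a transcript opposite to Fzd10 and not a receptor.

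The RNA came from Kupffer cells, which are macrophages that reside in the liver, and from SL4 cells, a colon carcinoma line of C57BL/6 mice. Kupffer cells were sorted as CD45+ CD11b+ F4/80+ cells from female C57BL/6 mice aged 12 weeks. The mice were Clec4n-/-, lacking the receptor Dectin-2, or wild type. Each group combined 100000 Kupffer cells with 100000 SL4 cells, cultured for 8 hours in RPMI medium with serum. The 4 groups were knockout co-culture, knockout separate culture, wild-type co-culture and wild-type separate culture. In separate culture the cell types never met, and their RNA was mixed before the array, so all 4 arrays hold RNA of both. SL4 cells were the same line in all groups, and the labels do not say how many mice gave the Kupffer cells. Each group had 1 array, so no difference below has a replicate check, no test was made, and no SD can be given.

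Wnt proteins are lipid-modified secreted ligands that need the carrier Wls to leave the cell. They bind a Frizzled receptor together with Lrp5 or Lrp6, which stabilises beta-catenin and lets it act with TCF and LEF factors in the nucleus. Other Frizzled signals steer cell polarity and movement without beta-catenin. Dkk proteins bind Lrp5 and Lrp6, Sfrp proteins bind Wnts themselves, and in intestinal epithelium and colon carcinoma the beta-catenin branch is known for driving growth.

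Of the 12 genes with a signal above background in at least 1 array, 4 had lower signals in co-culture than in separate culture in both genotypes, namely Dkk2, Fzd2, Fzd7 and Wnt7b. The RefSeq promoter table of assembly GRCm38.p6 held 2 of these 4 genes, Dkk2 and Fzd7, and not Wnt7b and Fzd2. Their upstream DNA is shown because Dkk2 had the lowest ratio in both genotypes among the genes of these families that could be measured, and Fzd7 shared its direction with a much smaller change. Each line gives the 250 bases before the annotated start, 5′ to 3′ on the gene's strand. They are chr3:132085042-132085291, plus strand, for Dkk2, and chr1:59481897-59482146, plus strand, for Fzd7. Capitals mark 3 motifs searched on both strands: the TCF/LEF core CTTTG, the TATA box TATAAA and the CCAAT box CCAAT.
Dkk2: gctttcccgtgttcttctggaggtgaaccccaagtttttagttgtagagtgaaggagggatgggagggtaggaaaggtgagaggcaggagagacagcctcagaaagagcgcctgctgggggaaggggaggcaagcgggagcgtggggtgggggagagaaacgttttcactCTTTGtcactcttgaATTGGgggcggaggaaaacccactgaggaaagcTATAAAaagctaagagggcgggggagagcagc
Fzd7: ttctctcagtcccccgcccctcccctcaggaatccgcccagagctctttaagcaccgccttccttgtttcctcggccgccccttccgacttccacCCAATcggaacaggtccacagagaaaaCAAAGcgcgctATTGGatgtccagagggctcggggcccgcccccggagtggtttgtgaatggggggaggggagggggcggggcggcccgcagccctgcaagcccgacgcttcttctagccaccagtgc

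The Dkk2 window held TATAAA between 32 and 27 bases before the start, 1 CCAAT match and 1 CTTTG match, none of them overlapping. The Fzd7 window held no TATAAA, 2 CCAAT matches and 1 CTTTG match. Of 32851 promoter windows of the same length, 12.4% held TATAAA on either strand, 33.8% CCAAT and 48.6% CTTTG, so the CTTTG core is common. TGANTCA, the AP-1 motif, and CATTCC, the TEAD motif, were found in 6.75% and 12.6% of windows and in neither of these 2. These matches describe letters and are no evidence of binding.

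Signals are the deposited MAS5 intensities on a linear scale. A signal at or under 76.1, which is the median signal of the whole data set, was not told apart from background and is called under the floor. Where a gene had several probe sets, the brightest on average stands for it, and ratios were taken after raising lower signals to the floor. Median signals of the arrays lay between 72.5 and 78.4, and an array had between 10117 and 10187 genes over the floor. Clec4n, the deleted gene, was under the floor in all 4 arrays, at 8.19 and 8.29 in knockout co-culture and separate culture and 17.6 and 14.2 in wild-type co-culture and separate culture. Whether its probe sets lie in the deleted part is not known.

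Markers of the labelled cells were in part under the floor as well. Of 18 macrophage and leukocyte markers, 9 were under the floor in all 4 arrays, Ptprc and Adgre1 among them, and of 12 Kupffer cell markers 8 were, Clec4f, Timd4 and Vsig4 among them. Of 16 epithelial and colon carcinoma markers, 13 were under it, Cdh1, Krt8 and Krt18 among them. Of the 19 mesenchymal markers matched, 13 were above the floor in at least 1 array. For comparison, 10637 of all 18193 named genes were above it in at least 1 array. In such mixed RNA, fewer cells of a type and less RNA per cell cannot be told apart.

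Of the 38 genes, 12 were above the floor in at least 1 array and 9 of these in all 4. Over all named genes, 10637 of 18193 were above it in at least 1 array. Frizzled receptors made up 6 of the 9, with Fzd1, Fzd2, Fzd3, Fzd5, Fzd6 and Fzd7. The other 3 were the ligand genes Wnt5b and Wnt7b and the antagonist gene Dkk2. Wnt2b was above the floor in 3 arrays, and Wnt4 and Sfrp4 in 1 array each.

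**Figure D1:**
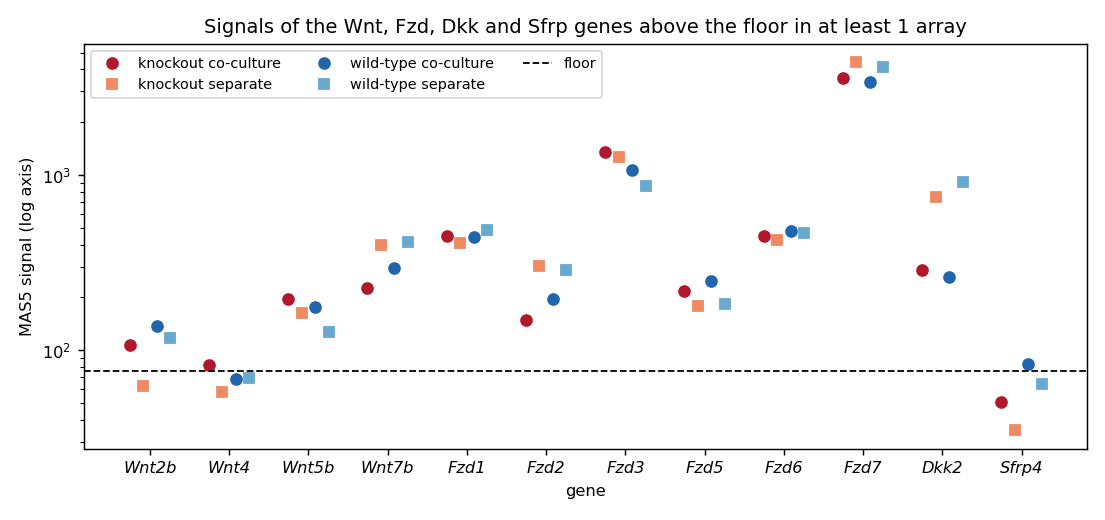
MAS5 signal on a log axis of the 12 genes above the floor of 76.1 in at least 1 array, with 1 point per array. Dkk2 reads 288 and 262 in the co-culture arrays (circles), and 750 and 914 in the separate arrays (squares), while Fzd1 and Fzd6 lie close together in all 4.

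Dkk2, whose protein binds Lrp5 and Lrp6 and can block or, in some settings, raise Wnt signalling, had the lowest co-culture ratio of the 12 genes in both genotypes. Its signal was 288 in knockout co-culture, against 750 in knockout separate culture. With wild-type Kupffer cells it was 262 in co-culture, against 914 in separate culture. Both co-culture arrays lay under both separate arrays. Dkk2 was 2.60-fold lower in co-culture in knockout and 3.49-fold lower in wild type, a log2 ratio of -1.38 and -1.80. From the lowest ratio upward it ranked 14 of 10444 genes in knockout and 2 of 10417 in wild type. Dkk2 had 1 probe set, so no second reading on the array stands beside it.

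The other Dkk genes were all under the floor. Dkk3, a divergent member of the family, read 41.3 in knockout co-culture and 27.1 in knockout separate culture, and 33.2 in wild-type co-culture and 25.5 in wild-type separate culture. Dkk1, an inhibitor of Lrp5 and Lrp6 that beta-catenin itself induces, read at most 11.8 on its probe sets, and Dkk4, another such inhibitor, at most 39.9. No ratio is given for these 3 genes.

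Fzd2, a receptor that can bind Wnt5a, was the second gene at least 2-fold lower, in knockout. It read 148 in knockout co-culture, against 304 in knockout separate culture, 2.05-fold lower. With wild-type Kupffer cells it read 196 in co-culture, against 285 in separate culture, 1.45-fold lower. The co-culture arrays were again both under the separate arrays. Its other probe sets gave smaller ratios. The second was at least 1.32-fold lower in knockout and 1.30-fold lower in wild type, and the third was under the floor in knockout and had a log2 ratio of 0.02 in wild type.

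Wnt7b, a ligand that macrophages of the mouse eye are known to make, was the only measured ligand gene lower in co-culture in both genotypes. It read 226 in knockout co-culture, against 400.3 in knockout separate culture, 1.77-fold lower. In wild type it read 295 in co-culture, against 412 in separate culture, a log2 ratio of -0.48. Its second probe set read 166 in knockout co-culture, against 319 in knockout separate culture, and 155 in wild-type co-culture, against 307 in wild-type separate culture. That probe set was 1.92-fold lower in knockout and 1.98-fold lower in wild type. On both probe sets the co-culture arrays lay under the separate arrays, and on neither did the ratio reach 2-fold.

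Fzd7, a receptor with a known role in intestinal stem cells, read 3582 in knockout co-culture, against 4391 in knockout separate culture. In wild type it read 3401 in co-culture, against 4113 in separate culture. The ratios were close in the genotypes, 1.23-fold lower in knockout and 1.21-fold lower in wild type. Its second probe set was 1.76-fold lower in knockout and 1.17-fold lower in wild type, so the probe sets shared the direction and differed in size in knockout.

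**Figure D2:**
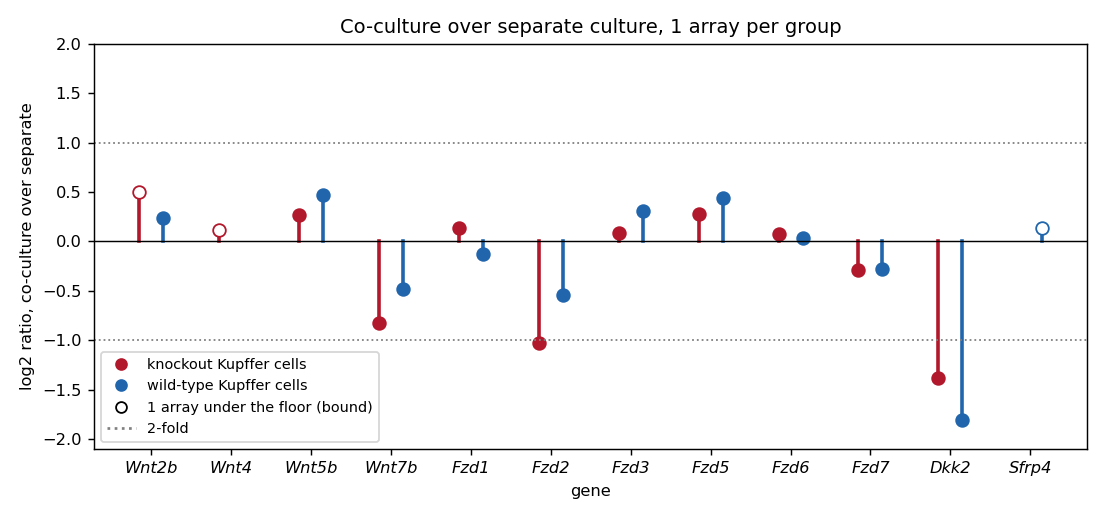
Log2 ratio of co-culture over separate culture for the same 12 genes, knockout in red and wild type in blue, with open circles where 1 array was under the floor and dotted lines at 2-fold. Dkk2 passes the lower line in both genotypes at -1.38 and -1.80, Fzd2 passes it in knockout at -1.03, and no gene reaches the upper line.

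Fzd3, a receptor known from axon guidance, had 6 probe sets above the floor in all 4 arrays, and they did not move together. The probe set that stands for the gene read 1351 in knockout co-culture, against 1274 in knockout separate culture, and 1072 in wild-type co-culture, against 867 in wild-type separate culture. Its ratio was 1.06-fold higher in knockout and 1.24-fold higher in wild type. Another probe set read 818 in knockout co-culture, against 554 in knockout separate culture, and 779 in wild-type co-culture, against 365 in wild-type separate culture. That one had log2 ratios of 0.56 in knockout and 1.09 in wild type, a 2.13-fold higher signal. Of the 21 probe sets of the 38 genes measured above the floor in knockout and the 22 in wild type, this wild-type ratio was the only one at least 2-fold higher in co-culture. In wild type the log2 ratios of the 6 probe sets ran between -0.54 and 1.09, and in knockout between -0.24 and 0.56.

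Fzd5, which matures Paneth cells in the mouse intestine, read 217 in knockout co-culture, against 178 in knockout separate culture, 1.22-fold higher. In wild type it read 249 in co-culture, against 184 in separate culture, 1.35-fold higher. Both co-culture arrays lay above both separate arrays. Its second probe set was under the floor in all 4.

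Fzd1 and Fzd6 were nearly level. Fzd1, a receptor of the beta-catenin branch, read 450.3 in knockout co-culture, against 410 in knockout separate culture, and 442 in wild-type co-culture, against 485 in wild-type separate culture. Its log2 ratios were 0.14 in knockout and -0.13 in wild type. Both signs were turned on its second probe set, with a log2 ratio of -0.06 in knockout and an at least 1.12-fold higher signal in wild type. Fzd6, which orients hair follicles in mice, read 446 in knockout co-culture, against 423 in knockout separate culture, and 476 in wild-type co-culture, against 467 in wild-type separate culture. Its dimmer second probe set was 1.19-fold higher in knockout, and in wild type at least 1.62-fold higher.

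**Figure D3:**
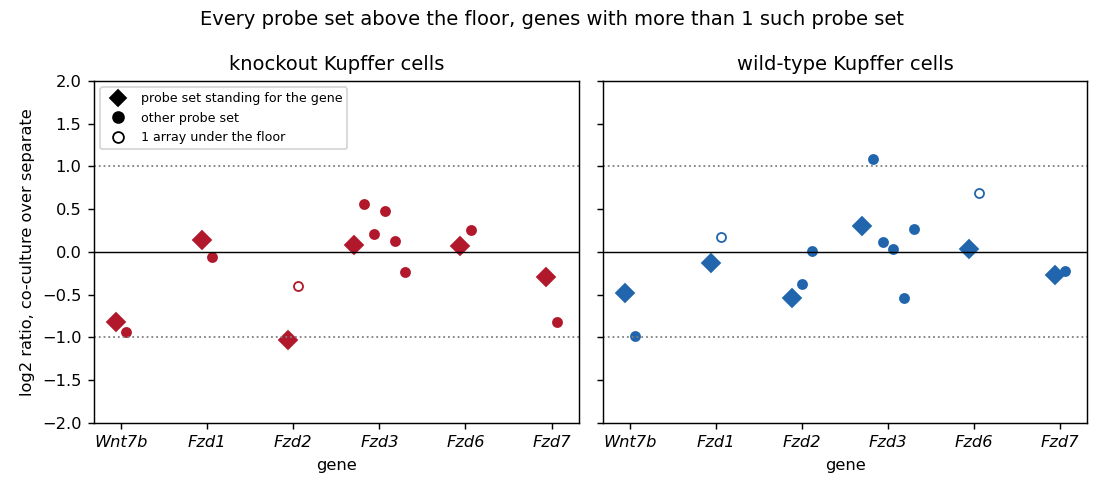
Log2 ratio of co-culture over separate culture for every probe set above the floor, for the 6 genes with more than 1 such probe set, knockout on the left and wild type on the right. Diamonds mark the probe set that stands for the gene and open symbols a ratio with 1 array under the floor. Both Wnt7b probe sets lie under 0 in both panels, and the 6 Fzd3 probe sets spread between -0.54 and 1.09 in wild type.

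Fzd4, the receptor of norrin, Fzd8, Fzd9, Fzd10 and Fzd10os were under the floor in all 4 arrays. Fzd4 read 56.7 in knockout co-culture, 29.5 in knockout separate culture, 19.0 in wild-type co-culture and 58.1 in wild-type separate culture, with no common order of the cultures.

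Among the ligands, Wnt5b, a relative of Wnt5a that signals mainly without beta-catenin, read 196 in knockout co-culture, against 164 in knockout separate culture, 1.20-fold higher. In wild type it read 176 in co-culture, against 127 in separate culture, 1.39-fold higher. The co-culture arrays lay above the separate arrays, by little: 176 in wild-type co-culture stands beside 164 in knockout separate culture. This probe set carries the suffix _x_at, which marks probes that can bind other transcripts, and the second Wnt5b probe set was under the floor in all 4 arrays.

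Wnt2b, a ligand of the beta-catenin branch, read 107 in knockout co-culture, against 62.0 in knockout separate culture, so that it was at least 1.41-fold higher. In wild type it read 138 in co-culture, against 117 in separate culture, 1.18-fold higher, and the groups overlapped. Wnt4 passed the floor in knockout co-culture only, at 82.2, against 57.5 in knockout separate culture, and read 68.2 in wild-type co-culture and 69.6 in wild-type separate culture. Sfrp4, a secreted antagonist, passed it in wild-type co-culture only, at 83.5, against 64.4 in wild-type separate culture, and read 50.6 in knockout co-culture and 34.8 in knockout separate culture.

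The other 15 Wnt genes were under the floor in all 4 arrays, with signals between 0.747 and 65.5 on the probe sets that stand for them. They were Wnt1, Wnt2, Wnt3, Wnt3a, Wnt5a, Wnt6, Wnt7a, Wnt8a, Wnt8b, Wnt9a, Wnt9b, Wnt10a, Wnt10b, Wnt11 and Wnt16. Wnt2 and Wnt9b, which liver endothelial cells are known to supply to hepatocytes, read at most 16.2 and 31.4. Wnt5a, a ligand that acts mainly without beta-catenin, read at most 5.47 on the probe set that stands for it. Wnt11 read 23.2 in knockout co-culture, 29.4 in knockout separate culture, 65.5 in wild-type co-culture and 38.1 in wild-type separate culture. Sfrp1, Sfrp2 and Sfrp5, the remaining secreted frizzled-related genes, read at most 29.6, 25.6 and 13.4. No ratio is given for any of these genes, and a signal under the floor does not show that a gene is silent.

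Counted together, 11 of the 38 genes were above the floor in at least 1 of the knockout arrays. Of these, 0 had a ratio of 2-fold or more upward and 2 downward, Dkk2 and Fzd2, where 0.67% of all 10444 genes were higher and 0.574% lower. In wild type 11 genes were also measured, with 0 at least 2-fold higher and 1 lower, Dkk2, where 0.701% of all 10417 genes were higher and 0.538% lower. At 1.5-fold, 3 genes were lower in knockout co-culture, namely Dkk2, Fzd2 and Wnt7b, and 0 higher, where 4.28% of all genes were lower and 2.5% higher. In wild type, 1 gene was 1.5-fold lower, Dkk2, and 0 higher, where 3.39% of all genes were lower and 3.31% higher. In each genotype 9 of the 11 had a brighter array of at least 2 floors and so could have reached 2-fold. The median log2 ratio of the measured genes was 0.08 in knockout and 0.03 in wild type, beside -0.02 over all genes in both genotypes. Wnt2b and Wnt4 in knockout and Sfrp4 in wild type passed the floor only in co-culture, so their ratios could only be above 1. With a floor 2 times higher, 9 genes were measured, with medians of 0.07 in knockout and -0.13 in wild type. The sign of these small medians is therefore not read. Of the 12 genes, 5 were higher in co-culture in both genotypes, 4 lower in both, and the rest had opposite signs or no ratio in 1 genotype. Over all genes, 4908 of 10444 were higher in knockout co-culture and 4864 of 10417 in wild-type co-culture. The share of all genes with the same sign in both genotypes was not counted, so the 5 and 4 are description only.

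**Figure D4:**
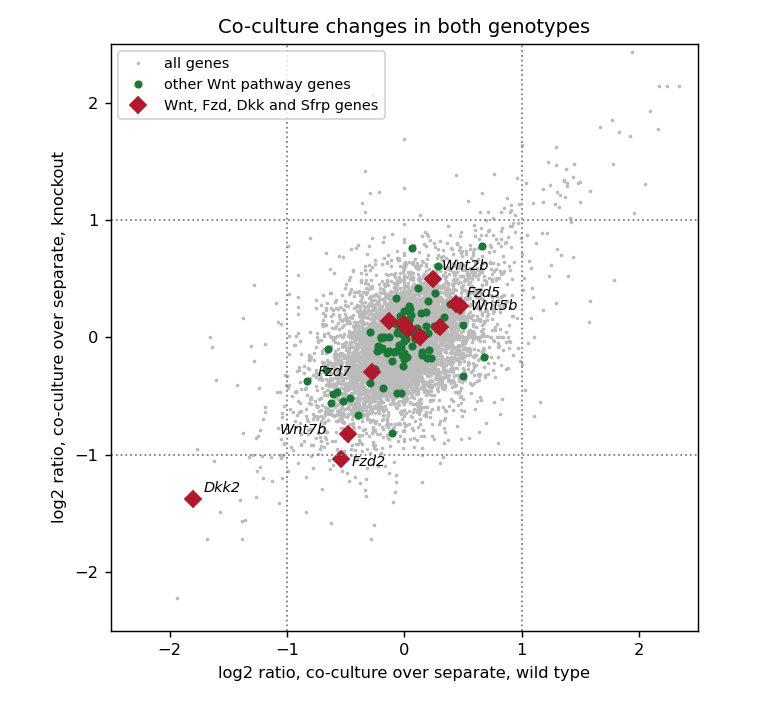
Log2 ratio of co-culture over separate culture in knockout (vertical) against wild type (horizontal) for 10637 genes, with dotted lines at 2-fold; 5 genes lie outside the axes. Red diamonds are the Wnt, Fzd, Dkk and Sfrp genes and green points the other genes of the Wnt lists. Dkk2 lies at -1.80 and -1.38, apart from the other diamonds.

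The question of the design was whether changes in co-culture depend on Dectin-2. On the probe sets that stand for these genes, the co-culture ratios of knockout and wild type differed by at most 0.49 on the log2 scale, for Fzd2. By this reading 0 of 12 differed at least 2-fold, where 1.05% of all genes did. Wnt4 and Sfrp4 are among the 12, although each was under the floor in both arrays of 1 genotype. Some other probe sets differed more, by 0.66 and -0.53 for Fzd3 and -0.59 for Fzd7, knockout minus wild type. For Dkk2 the difference, knockout minus wild type, was 0.42. In co-culture, 0 of 12 genes had a knockout signal 2-fold above that of wild type or more, and 0 a signal 2-fold below it, where 0.144% of all genes were higher and 0.0962% lower. Only 9 of the 12 had a brighter array of at least 2 floors there. Wnt2b, Wnt4 and Sfrp4 could not have reached 2-fold. On the probe sets that stand for the genes, the size of the knockout over wild-type log2 ratio in co-culture was largest for Fzd2, at -0.40. The second Fzd7 probe set had -0.51. In separate culture 9 of the 10 genes measured had a brighter array of at least 2 floors, and Wnt2b did not. Of the 10, 0 were 2-fold higher in knockout and 0 lower, where 0.0869% of all genes were higher and 0.116% lower. There, Wnt2b was at least 1.54-fold lower in knockout, and Fzd3 1.47-fold higher on the probe set that stands for it. Another Fzd3 probe set went the other way, at 255 in knockout separate culture against 465 in wild-type separate culture, 1.82-fold lower.

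The rest of the pathway was read from 6 lists of 143 genes, of which 132 were on the array. Of these, 88 were measured in knockout and 86 in wild type. In both genotypes 0 of them were past 2-fold in either direction, where 0.67% and 0.574% of all genes were so in knockout and 0.701% and 0.538% in wild type. The median log2 ratio was 0.00 in knockout and -0.02 in wild type, close to that of all genes.

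Among co-receptors, 9 of 12 were above the floor in at least 1 array. Lrp6, the partner of Frizzled that Dkk proteins bind, read 3849 in knockout co-culture, against 3543 in knockout separate culture, and 3851 in wild-type co-culture, against 4019 in wild-type separate culture. Ryk, an alternative Wnt receptor, had log2 ratios of -0.13 in knockout and -0.15 in wild type. Kremen1, which removes Lrp6 from the surface together with Dkk proteins and is named here after its values were seen, read 411 in knockout co-culture, against 436 in knockout separate culture, and 355 in wild-type co-culture, against 362 in wild-type separate culture.

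Of the genes for release and other secreted modulation, 9 of 27 were above the floor. Of those measured, 3 of 9 in knockout and 1 of 8 in wild type had a ratio above 1. Apcdd1, a membrane inhibitor of Wnt signalling, was 1.22-fold lower in knockout and 1.59-fold lower in wild type. Serpinf1, which encodes the secreted factor PEDF, had log2 ratios of 0.18 in knockout and -0.03 in wild type. Wls, Tcf7l2 and Lef1 were singled out after their values were seen, as genes lower in both co-cultures. Wls, the Wnt carrier, read 667 in knockout co-culture, against 955 in knockout separate culture, and 673 in wild-type co-culture, against 928 in wild-type separate culture.

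Of the genes of the cytoplasmic relay, 24 of 31 were above the floor. In the knockout and wild-type comparisons 12 and 15 of them had ratios above 1, where 4908 of 10444 and 4864 of 10417 genes did. Ctnnb1, which encodes beta-catenin, had log2 ratios of 0.16 in knockout and 0.04 in wild type, and Tnks2, a tankyrase that destabilises Axin, 0.08 in knockout and 0.03 in wild type. Of the nuclear factors 19 of 22 were above the floor. In each genotype 8 of these 19 had a ratio above 1, with median log2 ratios of -0.12 in knockout and -0.04 in wild type. Smarca4 and Crebbp, chromatin partners of beta-catenin, had log2 ratios between -0.04 and 0.24. Tcf7l2, a TCF factor of the intestine, read 2324 in knockout co-culture, against 3253 in knockout separate culture, and 2099 in wild-type co-culture, against 3191 in wild-type separate culture. Lef1, its relative, read 749 in knockout co-culture, against 980.4 in knockout separate culture, and 733 in wild-type co-culture, against 896 in wild-type separate culture.

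Of 26 transcriptional targets, 16 were above the floor. Those most often used as readouts of beta-catenin, Axin2, Lgr5, Nkd1, Notum, Sp5 and Rnf43, were under the floor in all 4 arrays. Myc, a growth regulator, had log2 ratios of 0.21 in knockout and 0.14 in wild type, and Ccnd1, a cyclin, -0.07 in knockout and -0.22 in wild type. Vegfa, an angiogenic factor with several known inputs besides Wnt, was the only gene of the 6 lists at least 1.5-fold apart in the same direction in both genotypes with all 4 arrays above the floor. It read 1372 in knockout co-culture, against 798 in knockout separate culture, 1.72-fold higher. In wild type it read 1277 in co-culture, against 806 in separate culture, 1.58-fold higher. How many of all genes met this rule in both genotypes was not counted, so Vegfa is named as description only. Within single genotypes, 3 of 88 list genes in knockout and 2 of 86 in wild type rose 1.5-fold or more. Of all genes, 2.5% and 3.31% did. A fall of that size was seen for 2 and 5 list genes, and for 4.28% and 3.39% of all genes. Of 21 planar polarity genes 14 were above the floor, and Rhoa and Rac1, small GTPases of cell movement, had log2 ratios between -0.09 and 0.13.

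**Figure D5:**
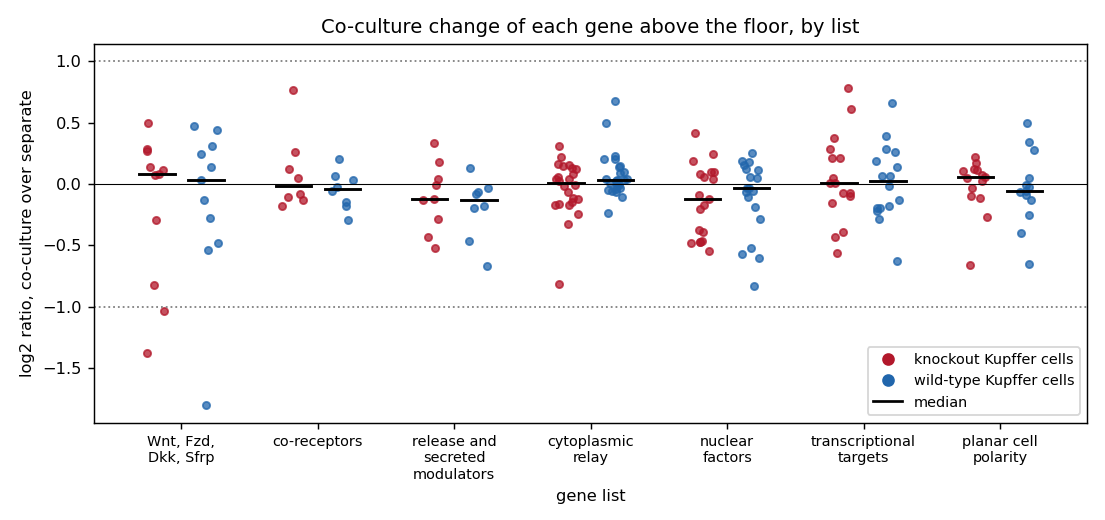
Log2 ratio of co-culture over separate culture for each gene above the floor, knockout in red left of wild type in blue, for the Wnt, Fzd, Dkk and Sfrp genes and the 6 other lists, with black bars at the medians and dotted lines at 2-fold. The points past the lower line belong to Dkk2 and Fzd2, and no point of the 6 lists passes either line.

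Markers of other cells were read beside these genes. Over all genes measured, 5536 of 10444 had a ratio under 1 in knockout and 5553 of 10417 in wild type, and the rest had a ratio above 1. Of the mesenchymal markers, 10 of 13 measured had a ratio under 1 in knockout co-culture and 8 of 12 in wild-type co-culture, with median log2 ratios of -0.19 and -0.31. Their summed signal was 31941 in knockout co-culture, against 33313 in knockout separate culture, and 33825 in wild-type co-culture, against 36983 in wild-type separate culture. Of the macrophage and leukocyte markers, 6 of 9 measured had a ratio above 1 in each genotype. Their summed signal was 2242 in knockout co-culture, against 2233 in knockout separate culture, and 2296 in wild-type co-culture, against 1905 in wild-type separate culture. The median signal of all 18 was lower in co-culture, 55.6 against 71.4 in knockout and 51.3 against 56.4 in wild type. The summed signal of the 8 hepatic stellate markers was 4386 in knockout co-culture, against 5085 in knockout separate culture, and 4569.7 in wild-type co-culture, against 5399 in wild-type separate culture. A sum follows the brightest genes, and 4 of the 8 were under the floor in all 4 arrays. Their median signal went the other way, 51.7 against 35.9 in knockout and 58.2 against 24.0 in wild type. Of those measured, 2 of 3 in knockout and 2 of 4 in wild type had a ratio under 1. Of the hepatocyte markers, 4 of 4 measured in knockout and 4 of 5 in wild type had a ratio under 1. They summed to 843 in knockout co-culture, against 946 in knockout separate culture, and to 808 in wild-type co-culture, against 935 in wild-type separate culture. The 12 Kupffer cell markers summed to 2784 in knockout co-culture, against 2568 in knockout separate culture, and to 2842 in wild-type co-culture, against 2669.7 in wild-type separate culture. Of these, 4 were measured, 3 of them with a ratio above 1 in each genotype. Their median signal fell in knockout, 36.7 against 57.5, and rose in wild type, 50.3 against 40.2. The 16 epithelial markers summed to 1247 in knockout co-culture, against 1139 in knockout separate culture, and to 1190.3 in wild-type co-culture, against 1170.0 in wild-type separate culture. Only 3 were measured, and 2 of them in knockout and 3 in wild type had a ratio above 1. The median signal of all 16 went the other way, 15.7 against 23.6 in knockout and 18.9 against 24.1 in wild type. The 10 liver endothelial markers, 9 of them under the floor, summed to 489.7 in knockout co-culture, against 369 in knockout separate culture, and to 540.3 in wild-type co-culture, against 399 in wild-type separate culture. The part of these markers in the lower Dkk2, Fzd2, Fzd7 and Wnt7b signals was not tested.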

How the data were processed

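The deposited values are intensities per probe set on a linear scale, made with MAS5 in Affymetrix Expression Console 1.4, per the submitters' processing notes. The 2% trimmed mean was 497 or 498 in all 4 arrays, so values are relative within an array. Of 45037 probe sets, 34945 had 1 gene symbol in the platform annotation (932 had several, 9160 were not listed). All 38 member genes were found by Entrez number in a RefSeq table, used for names only.

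Python 3.11.15, numpy 2.4.6 and pandas 2.3.3 were used. Signals were raised to the floor and compared as ratios, in 5 comparisons. These were co-culture over separate culture for knockout and for wild type, knockout over wild type for co-culture and for separate culture, and the difference of the co-culture ratios. Where the dimmer array was under the floor, a fold is written as "at least". A count took ratios of 2-fold or more. With 1 array per group no test was made, and precision is limited by the number of arrays. The members and gene lists were chosen with earlier results of these data known. Members above the floor in any array are named. Genes of the other lists are named where at least 2-fold in either genotype, or at least 1.5-fold the same way in both, with the 2 brightest of each list. Kremen1, Wls, Tcf7l2 and Lef1 were added after their values were seen. The ratios were tested on simulated data. Alternatives were other floors (none, one from odorant and vomeronasal receptor probe sets, 2 times the main one), quantile normalization, a common median, other choices of probe set, and 1.5-fold.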

Additional observations from a re-analysis of the deposited data

How the results depend on the processing

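Dkk2 stayed at least 2-fold lower in co-culture in both genotypes under quantile normalization and a common median. Its log2 ratios were then -1.35 and -1.41 in knockout and -1.81 and -1.92 in wild type. No other alternative could change its ratios, since its 4 signals lay above every floor and it has no second probe set. Fzd2 ranged between -1.07 and -0.40 in knockout and between -0.65 and -0.19 in wild type. With a floor 2 times higher, and with the median over probe sets, only 1 gene, Dkk2, was 2-fold lower in knockout, where 0.336% and 0.555% of all genes were. On the 6 genes with a measured second probe set, 0 were 2-fold lower in either genotype and 1, Fzd3, was 2-fold higher in wild type, where on second probe sets 0.62% of all genes were lower in knockout, 0.348% lower in wild type and 0.842% higher in wild type. Without a floor all 38 genes entered. Then 6 were higher and 7 lower in knockout co-culture, where 9.53% and 8.6% of all genes were, and 6 higher and 6 lower in wild-type co-culture, where 10.9% and 8.52% were. Of the co-culture ratios 14 differed 2-fold between knockout and wild type, where 25.3% of all did. Knockout over wild type gave 5 higher and 5 lower in co-culture (all genes 9.94% and 7.93%) and 6 higher and 5 lower in separate culture (10.4% and 7.36%), and the added genes all read under the main floor. With a receptor-based floor of 23.2, 1 gene was higher in knockout co-culture (Wnt9a, all genes 1.71%), 2 lower in wild-type co-culture (Dkk2 and Fzd4, all genes 1.21%), and 3 differed between the genotypes (4.83%). In knockout over wild type 1 was higher and 1 lower in co-culture (0.984% and 0.879%), and 1 lower in separate culture (0.684%). At 1.5-fold, 1 gene, Wnt2b, was lower in knockout in separate culture, where 1.05% of all genes were. The median log2 ratio of the measured genes was -0.13 in wild type with the floor 2 times higher, and in knockout -0.18 with the median over probe sets and -0.23 on the second probe set, and 0.21 on the second probe set for knockout over wild type in separate culture. Of 136 ratios of single genes in co-culture over separate culture, 109 moved by less than 0.15 on the log2 scale. That is the typical spread of such a ratio between the genotypes. Many of the 136 could not move, since a changed floor leaves signals above it as they are and some genes had 1 probe set. On the second probe set most ratios moved by more than 0.15. The cause of these shifts was not tested. A fit over all 4 arrays with genotype as a block, which would leave 1 residual degree of freedom, was not made. Having 1 array per group limits every ratio, and 26 of 38 genes lay under the floor.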

Other observations

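The 26 genes under the floor in all 4 arrays were also read without it, as values only. Their co-culture signals lay above the separate ones in both genotypes for 6 genes, below in both for 5, and in opposite directions for 15. The same was not counted for the other genes under the floor, so these counts are description only. Sfrp2, a secreted frizzled-related gene, read 11.0 in knockout co-culture, against 25.6 in knockout separate culture, and 7.83 in wild-type co-culture, against 23.1 in wild-type separate culture. Wnt2 read 16.2 in knockout co-culture, against 5.64 in knockout separate culture, and 11.9 in wild-type co-culture, against 2.46 in wild-type separate culture. Wnt10b read 1.48 in knockout co-culture, against 3.13 in knockout separate culture, and 0.747 in wild-type co-culture, against 3.63 in wild-type separate culture. Sfrp2, Wnt2 and Wnt10b were picked after their values were seen. At these signals a second array of each group would be needed before a direction is read.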
